A study of Arabidopsis thaliana with 10 samples.

Results

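In Arabidopsis seedlings, 40 of 25433 measured loci had a low signal in wild type (WT) at both ages and a clear one in LFYasEMF1, a line with antisense EMF1 RNA. They were chosen by signal level. A level is the log2 of the background-subtracted signal of the locus's brightest probe over the 75th percentile of its array, and a chosen locus lay below −6 on all 4 WT arrays and above −5 on both LFYasEMF1 arrays. Of 5115 loci below −6 on all 4 WT arrays, 47 (0.919%) passed the LFYasEMF1 limit, and 7 of these were set aside by name (AP1, CAL, AP3, SEP1, SEP2, STK and AGL71, all of the MADS-box family of flower regulators), which left the 40. All 40 were protein-coding. Because LFYasEMF1 and WT values chose the loci, their difference is given as a description, without a test. The limits did not use the level in the other 2 lines, ult1-3 and LFYasEMF1/ult1-3. Those lines entered only the mean over all 10 arrays that picked the brightest probe of a locus. In LFYasEMF1/ult1-3, 9 of the 40 were again above −5 on both arrays, 20 were below −6 on both arrays, and 11 met neither condition. Of all 5115 loci, the 40 included, 0.43% were above −5 on both LFYasEMF1/ult1-3 arrays and 92.1% below −6 on both. In ult1-3, 1 of the 40 was above −5 on both arrays and 37 were below −6 on both, beside 0.0978% and 96.8% of the 5115 loci.

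EMF1 is a plant protein of the Polycomb system, which keeps developmental genes silent through a repressive histone mark and chromatin compaction, and seedlings that lack EMF1 express flower programmes at germination. ULT1 belongs to the opposing trithorax group, has a SAND domain and counteracts Polycomb repression at floral genes such as AGAMOUS. By its title, the series is about the effect of ult1-3 on the LFYasEMF1 phenotype.

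The 4 genotypes were compared at 7 and 15 days of age. LFYasEMF1/ult1-3, called the double mutant here, combines the transgene with the ult1-3 allele. LFYasEMF1 carries the transgene alone, in which the LEAFY (LFY) promoter drives the antisense EMF1 RNA, so the reduction is meant to follow that promoter and not to be uniform over the plant. ult1-3 is an allele of ULT1, and WT is the wild type. All seedlings were grown from seed on MS agar with sucrose under short days, and total RNA came from whole seedlings. Of the 10 arrays, each read in 1 colour, WT took 2 at each age and each mutant took 1 at each age. The labels do not say whether arrays came from separate cultures, so the spread behind each p-value may be technical. In RNA from whole seedlings, more cells expressing a gene and more RNA per expressing cell cannot be told apart.

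Per array, 71.7% to 80.1% of spots were well above background, and precision is limited by how few arrays there were. Slide 1 held both LFYasEMF1 arrays and replicate 1 of WT at both ages, while slides 2 and 3 held the double mutant, ult1-3 and WT replicate 2, slide 2 at the younger age and slide 3 at the older. The clock gene LHY lay at −5.99 to −2.27 on the slide 1 arrays and at 1.37 to 3.18 on slides 2 and 3. The double mutant and LFYasEMF1 never shared a slide, so line and slide cannot be told apart between them. The chosen loci were below −6 in WT on all 3 slides, by the rule. ULT1 was at −6.46 and −5.81 in the double mutant, −0.23 and −0.83 in LFYasEMF1, −2.33 and −2.76 in ult1-3 and between −0.95 and −0.16 in WT, so the double mutant also had less ULT1 signal than ult1-3. EMF1 was at −3.10 and −1.62 in the double mutant, −1.71 and −0.48 in LFYasEMF1, −2.55 and −1.73 in ult1-3 and between −3.06 and −1.29 in WT. Those ranges overlap, but WT on slide 1, which held LFYasEMF1, was below LFYasEMF1 at each age, at −3.06 and −1.55. The files do not say whether the EMF1 probe reads the sense or the antisense RNA. LFY was not well above background on any mutant array.

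**Figure D1:**
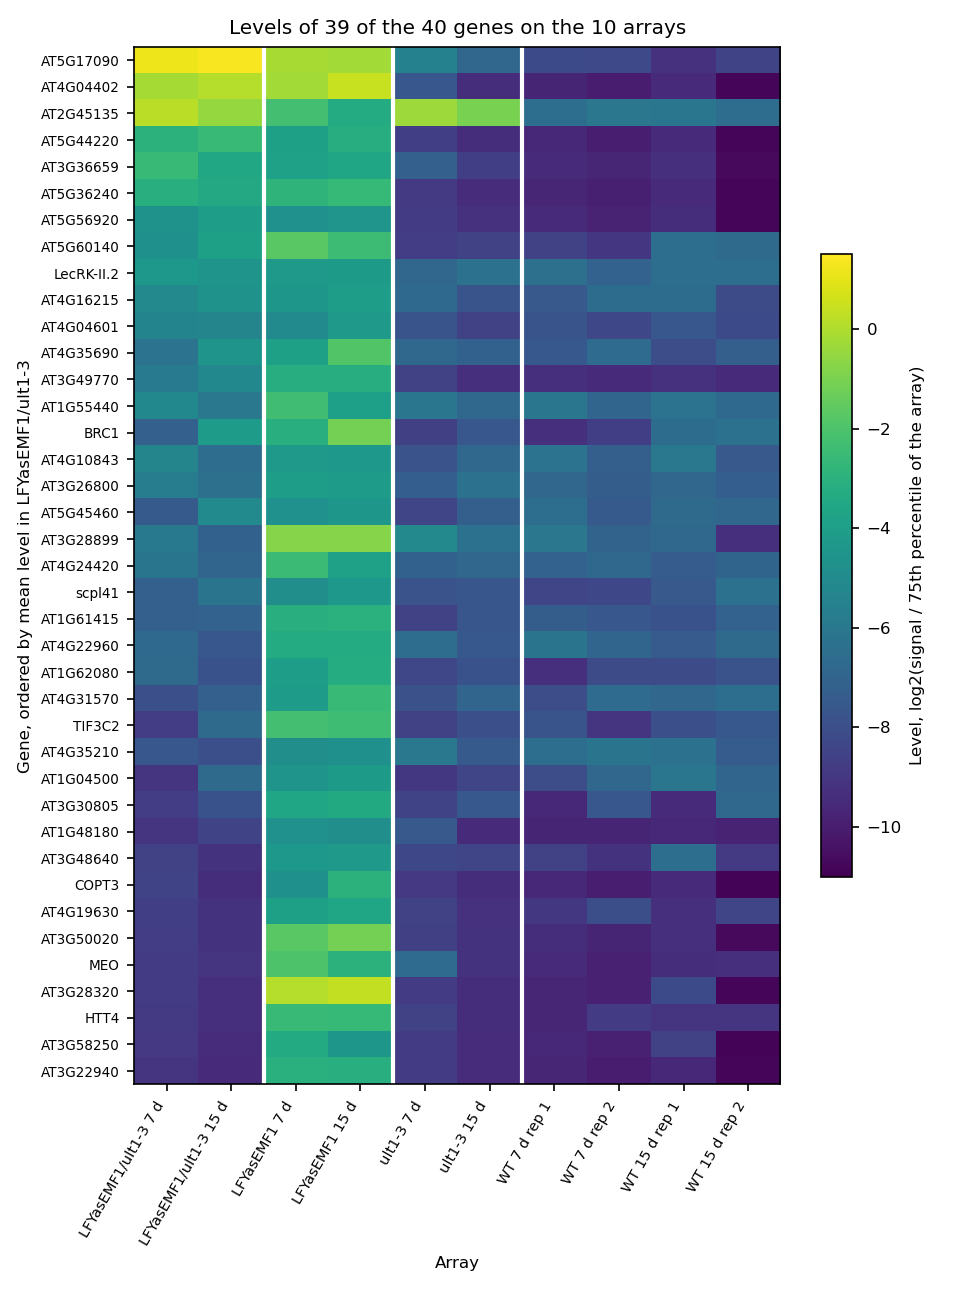
Levels (log2 of signal over the 75th percentile of the array) of 39 of the 40 genes, one row per gene ordered by mean level in LFYasEMF1/ult1-3, one column per array. Both LFYasEMF1 columns are bright throughout and the 4 WT columns dark, as the rule demands, whereas 9 rows stay bright in both LFYasEMF1/ult1-3 columns and AT2G45135 is the row that is bright in both ult1-3 columns.

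All 40 loci were well above background on both LFYasEMF1 arrays. In WT, 15 were well above background on none of the 4 arrays and 7 on all 4, so "silent" here means a low level and not the absence of transcript. For those 15 the level in LFYasEMF1 was at least 8.13-fold to at least 253-fold that in WT, with a median bound of 25.2-fold. The other 25, well above background on at least 1 WT array, had fitted ratios between 3.52-fold and 91.6-fold, with a median of 11.4-fold. Except for the 7 above background on all 4, the WT mean in these ratios includes values not well above background. Those ratios are therefore uncertain and not directly comparable with the bounds. The lower bounds compare LFYasEMF1 with the dimmest signal that counted as well above background on each WT array. The median over the 40 of the mean level per line was −6.62 in the double mutant, −3.44 in LFYasEMF1, −8.09 in ult1-3 and −8.02 in WT.

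The 40 loci lay on all 5 chromosomes, with 5 on chromosome 1, 2 on chromosome 2, 12 on chromosome 3, 11 on chromosome 4 and 10 on chromosome 5. The gene table used, of assembly TAIR10.1, gave a name to 8 of them, and 32 had only a locus name. The named genes include a regulator of shoot branching (BRC1), a component of ubiquitin ligases (MEO), a translation factor subunit (TIF3C2), a heat-induced target of TAS1 small RNAs (HTT4), a copper transporter (COPT3), a putative peptidase (scpl41) and a receptor kinase (LecRK-II.2).

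BRC1 (AT3G18550) encodes TCP18, a TCP transcription factor that holds axillary buds dormant. Its level at 7 and 15 days was −7.18 and −4.09 in the double mutant, −3.10 and −1.10 in LFYasEMF1 and −8.63 and −7.58 in ult1-3. In WT it was −9.25 and −8.70 at 7 days and −6.59 and −6.34 at 15 days. LFYasEMF1 was highest at each age. The 7-day double mutant array and both ult1-3 arrays were not well above background, so their values have no order among themselves. The double mutant exceeded ult1-3 by a log2 of 2.47 ± 0.48 (SE, 2 arrays against 2), at least 2.48-fold, which missed the threshold of the limma test (adjusted p = 0.154 over all genes). A second BRC1 probe also met the rule, at −8.73 and −6.25 in the double mutant, −4.18 and −2.17 in LFYasEMF1, −8.65 and −8.99 in ult1-3 and −9.72 to −7.51 in WT.

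2 genes known to work with BRC1 stood near the rule without meeting it in full, and they are named here after their values were seen. HB21 (AT2G18550), a homeodomain gene that BRC1 activates in dormant buds, was at −5.15 and −4.71 in the double mutant, −3.87 and 0.78 in LFYasEMF1, −6.20 and −8.68 in ult1-3 and −6.64 to −5.87 in WT. Its brightest WT array put it just outside the WT limit. TCP12 (AT1G68800), the close relative of BRC1 also known as BRC2, had 1 WT spot left out as an outlier and could not be judged by the rule. It was at −7.53 and −6.23 in the double mutant, −4.12 and −4.59 in LFYasEMF1, −8.34 and −8.18 in ult1-3 and −6.95, −6.83 and −6.18 on the 3 remaining WT arrays. For both genes LFYasEMF1 exceeded every WT array. In the double mutant HB21 did so too, whereas TCP12 lay within or below its WT range.

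MEO (MEIDOS, AT2G20160) encodes an SKP1-like protein, ASK17, an adaptor of SCF ubiquitin ligases. It was at −8.83 and −9.12 in the double mutant, −2.003 and −2.976 in LFYasEMF1, −6.63 and −9.15 in ult1-3 and −9.84 to −9.26 in WT. It was well above background in LFYasEMF1 only, at a level at least 38.8-fold that in WT and at least 22.5-fold that in the double mutant.

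TIF3C2 (AT3G22860) encodes a second copy of the C subunit of translation initiation factor eIF3. It was at −8.71 and −6.68 in the double mutant, −2.22 and −2.39 in LFYasEMF1, −8.56 and −7.96 in ult1-3 and −9.09 to −7.55 in WT. LFYasEMF1 was 55.0-fold over WT, where 1 of 4 arrays was well above background. The main copy, EIF3C (AT3G56150), was at 1.39 and 2.21 in the double mutant, 1.39 and 1.62 in LFYasEMF1, 1.82 and 2.31 in ult1-3 and 1.61 to 2.51 in WT. The expression of EIF3C in every line contrasts with TIF3C2, which stood out in LFYasEMF1 at both ages.

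HTT4 (AT4G29760) belongs to a small family of genes that TAS1 small RNAs target and that heat induces. It was at −8.89 and −9.26 in the double mutant, −2.51 and −2.63 in LFYasEMF1, −8.57 and −9.36 in ult1-3 and −9.66 to −8.79 in WT. LFYasEMF1 was at least 36.8-fold over WT, and no array of the other lines was well above background.

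Of the remaining named genes, COPT3 (AT5G59040), a copper transporter, was at −8.44 and −9.38 in the double mutant, −4.71 and −2.98 in LFYasEMF1, −8.94 and −9.38 in ult1-3 and −10.86 to −9.50 in WT. scpl41 (AT5G42230), a serine carboxypeptidase-like protein, was at −7.16 and −6.20 in the double mutant, −4.81 and −4.34 in LFYasEMF1, −7.83 and −7.67 in ult1-3 and −8.37 to −6.30 in WT. COPT3 was above background in LFYasEMF1 alone, and scpl41 in the double mutant at 15 days was no more than marginally above its brightest WT array.

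LecRK-II.2 (AT5G59270), a membrane receptor kinase with a legume-lectin-like outer domain, was the named gene whose level stayed up in the double mutant. It was at −4.32 and −4.55 in the double mutant, −4.26 and −4.20 in LFYasEMF1, −6.89 and −6.30 in ult1-3 and −7.07 to −6.37 in WT. Both lines with the transgene lay apart from both lines without it. The double mutant exceeded ult1-3 by 2.15 ± 0.32 on the log2 scale, or 4.45-fold, with a limma adjusted p of 0.0494 over all genes. That call is marginal, since it passed in 2 of 21 alternative fits, with adjusted p between 0.0424 and 0.465.

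The double mutant was set against ult1-3 to ask which of the 40 were higher with the transgene and ult1-3 together than with ult1-3 alone. Neither line was used by the limits that chose the loci, and each pair of arrays shared a slide. Both lines did enter the mean over all 10 arrays that picked the brightest probe, which matters for the 9 of the 40 with a second probe. All 22477 genes that were well above background on at least 1 array were fitted with limma on all 10 arrays by genotype and age, so the spread comes in part from the WT and LFYasEMF1 arrays that the rule used. The 40 were all among them, since each was well above background in LFYasEMF1. By limma, 9 of the 40 were higher in the double mutant at an adjusted p under 0.05 over all genes and 0 were lower, while 0.147% of all genes were called higher and 0.227% lower. A fit of the 4 arrays of these 2 lines alone called 0 of the 40 (17 at an unadjusted p under 0.05, 16 of them higher), and leaving out 1 array in turn gave 4 to 8 called members, 4 without the 15-day array of either line. Among the 2168 tested genes below −6 on all 4 WT arrays, the 40 included, 22 (1.01%) were called higher, and the 9 are part of these 22. At an unadjusted p under 0.05, 14 of the 40 were higher and 0 lower, beside 3.53% of all genes in either direction. The median difference over the 40 was 0.82 on the log2 scale, beside 0.01 over all genes, and 27 of 40 differences were positive. Both double mutant arrays lay above both ult1-3 arrays in 17 of the 40, beside 11.7% of all genes. In ult1-3, 37 of the 40 were below −6 on both arrays, and 30 were well above background on neither. For most of the 40 a lower level in the double mutant could therefore hardly be seen. The direction of these counts was largely set by the low ult1-3 level and is not read as a result.

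**Figure D2:**
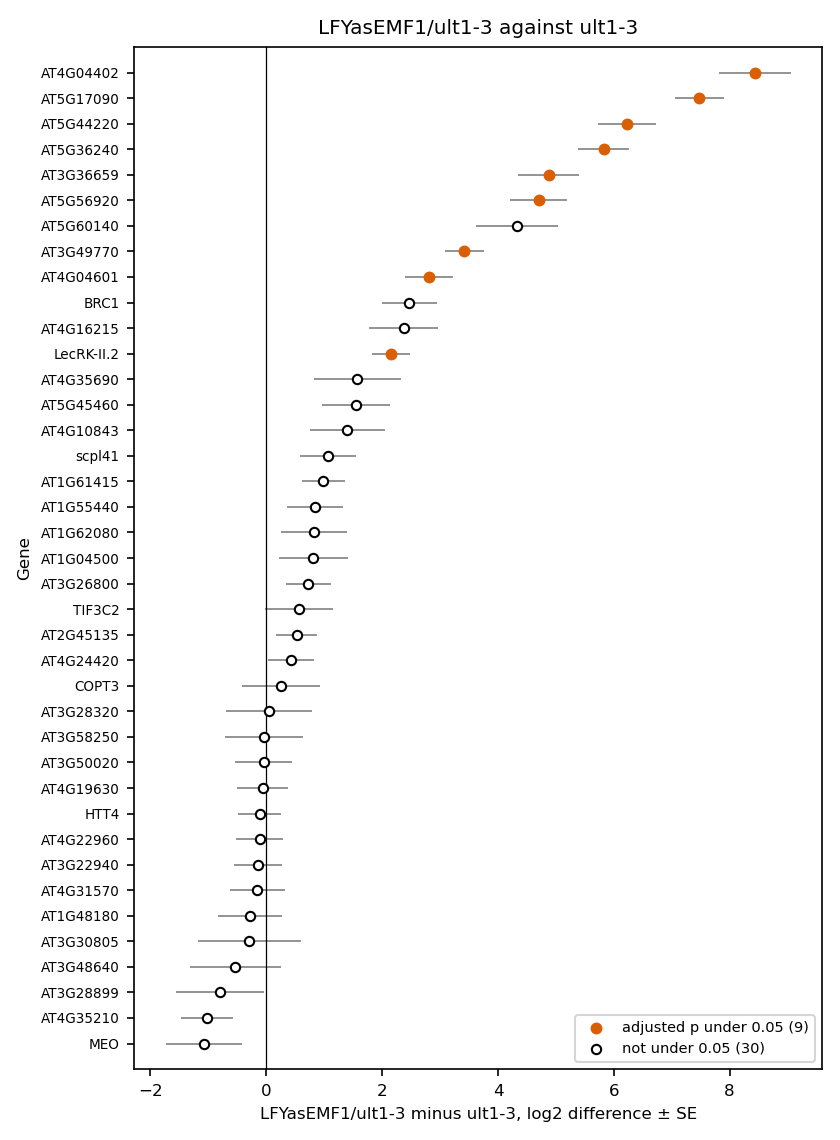
Fitted difference between LFYasEMF1/ult1-3 and ult1-3 for 39 of the 40 genes (log2, points) with its standard error (bars), ordered by size. Filled points mark the 9 genes with a limma adjusted p under 0.05 over all genes, all of them to the right of 0.

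The steepest differences belonged to genes that have only a locus name. AT4G04402 was at −0.16 and 0.09 in the double mutant, −0.23 and 0.44 in LFYasEMF1, −7.60 and −9.35 in ult1-3 and −10.83 to −9.53 in WT. AT5G17090 was at 1.19 and 1.37 in the double mutant, −0.15 and −0.23 in LFYasEMF1, −5.51 and −6.88 in ult1-3 and −9.20 to −8.21 in WT. AT4G04402 was about as high in the double mutant as in LFYasEMF1, and AT5G17090 was higher at both ages. For AT4G04402 the double mutant exceeded ult1-3 by 8.44 ± 0.62 (SE), at least 120-fold (limma adjusted p = 0.00148). For AT5G17090 the difference was 7.48 ± 0.42, or 178-fold (adjusted p = 0.000498). AT5G17090 was also well above background in ult1-3 on both arrays, above all 4 WT arrays, where it never was. A second probe of AT5G17090 gave 1.28 and 1.32 in the double mutant, −0.26 and −0.30 in LFYasEMF1, −5.01 and −6.69 in ult1-3 and −9.59 to −8.23 in WT.

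AT5G44220 was at −2.98 and −2.58 in the double mutant, −3.92 and −3.22 in LFYasEMF1, −8.67 and −9.35 in ult1-3 and −10.77 to −9.53 in WT. AT5G36240 was at −3.14 and −3.45 in the double mutant, −2.89 and −2.64 in LFYasEMF1, −8.86 and −9.39 in ult1-3 and −10.85 to −9.51 in WT. Neither gene was well above background on any ult1-3 or WT array. The differences between the double mutant and ult1-3 were 6.23 ± 0.50, at least 18.0-fold, for AT5G44220 (limma adjusted p = 0.00214) and 5.83 ± 0.44, at least 12.5-fold, for AT5G36240 (adjusted p = 0.00176). AT4G04402, AT5G17090, AT5G44220 and AT5G36240 were the 4 genes called in every alternative that tested them except the fit of 4 arrays alone.

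AT3G36659 was at −2.55 and −3.57 in the double mutant, −3.84 and −3.64 in LFYasEMF1, −7.18 and −8.70 in ult1-3 and −10.68 to −9.33 in WT. AT5G56920 was at −4.58 and −4.03 in the double mutant, −4.67 and −4.46 in LFYasEMF1, −8.78 and −9.23 in ult1-3 and −10.77 to −9.34 in WT. Both were higher in the double mutant than in LFYasEMF1 at each age, in part by little, and neither was well above background in ult1-3. The differences from ult1-3 were 4.88 ± 0.53, at least 14.8-fold, for AT3G36659 (limma adjusted p = 0.00971, passing in 16 of 20 alternatives) and 4.71 ± 0.49, at least 6.25-fold, for AT5G56920 (adjusted p = 0.00867, passing in 15 of 20).

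AT3G49770 and AT4G04601 were called although the double mutant did not reach −5. AT3G49770 was at −5.81 and −5.17 in the double mutant, −3.20 and −3.19 in LFYasEMF1, −8.57 and −9.25 in ult1-3 and −9.50 to −9.23 in WT. AT4G04601 was at −5.34 and −5.31 in the double mutant, −4.997 and −4.247 in LFYasEMF1, −7.75 and −8.52 in ult1-3 and −8.29 to −7.60 in WT. In both genes the 2 double mutant arrays stood between LFYasEMF1 and the remaining lines. The differences from ult1-3 were 3.42 ± 0.34, at least 2.75-fold, for AT3G49770 (limma adjusted p = 0.00652, passing in 14 of 20 alternatives) and 2.81 ± 0.41, at least 3.07-fold, for AT4G04601 (adjusted p = 0.0445, passing in 4 of 21).

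AT5G60140 and AT2G45135 were above −5 on both double mutant arrays without being called. AT5G60140 was at −4.75 and −3.87 in the double mutant, −1.68 and −2.41 in LFYasEMF1, −8.73 and −8.55 in ult1-3 and −9.03 to −6.47 in WT, and its difference from ult1-3 was 4.33 ± 0.70, at least 6.21-fold (limma adjusted p = 0.0723). AT2G45135 was at 0.19 and −0.47 in the double mutant, −2.24 and −3.31 in LFYasEMF1, −0.34 and −0.99 in ult1-3 and −6.54 to −6.05 in WT. It was the one gene of the 40 above −5 in ult1-3, and both lines with ult1-3 lay above both LFYasEMF1 arrays. The double mutant and ult1-3 differed by 0.53 ± 0.35 for AT2G45135 (limma adjusted p = 1.00). Fitted ratios to WT were 70.6-fold in the double mutant, 11.4-fold in LFYasEMF1 and 49.0-fold in ult1-3.

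Among the genes neither above −5 on both double mutant arrays nor below −6 on both were also AT4G16215, AT4G35690, AT4G10843 and AT3G26800. AT4G16215 was at −5.14 and −4.59 in the double mutant, −4.38 and −3.98 in LFYasEMF1, −6.71 and −7.76 in ult1-3 and −8.09 to −6.56 in WT. AT4G35690 was at −6.25 and −4.54 in the double mutant, −3.89 and −1.90 in LFYasEMF1, −6.81 and −7.11 in ult1-3 and −8.04 to −6.65 in WT. In both, the double mutant lay above ult1-3 and WT at each age and below LFYasEMF1, but the differences from ult1-3, 2.37 ± 0.60 and 1.57 ± 0.75 on the log2 scale, missed the limma threshold (adjusted p = 0.442 and 1.00). AT4G10843, at −5.30 and −6.53 in the double mutant, and AT3G26800, at −5.73 and −6.36, missed it too.

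Of the 9 genes above −5 in the double mutant, 6 lay on chromosome 5, which held 10 of the 40 and 23.2% of all genes tested, and nothing is read from this count. For 8 of the 40 the mean in the double mutant was within 1 log2 unit of that in LFYasEMF1.

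**Figure D3:**
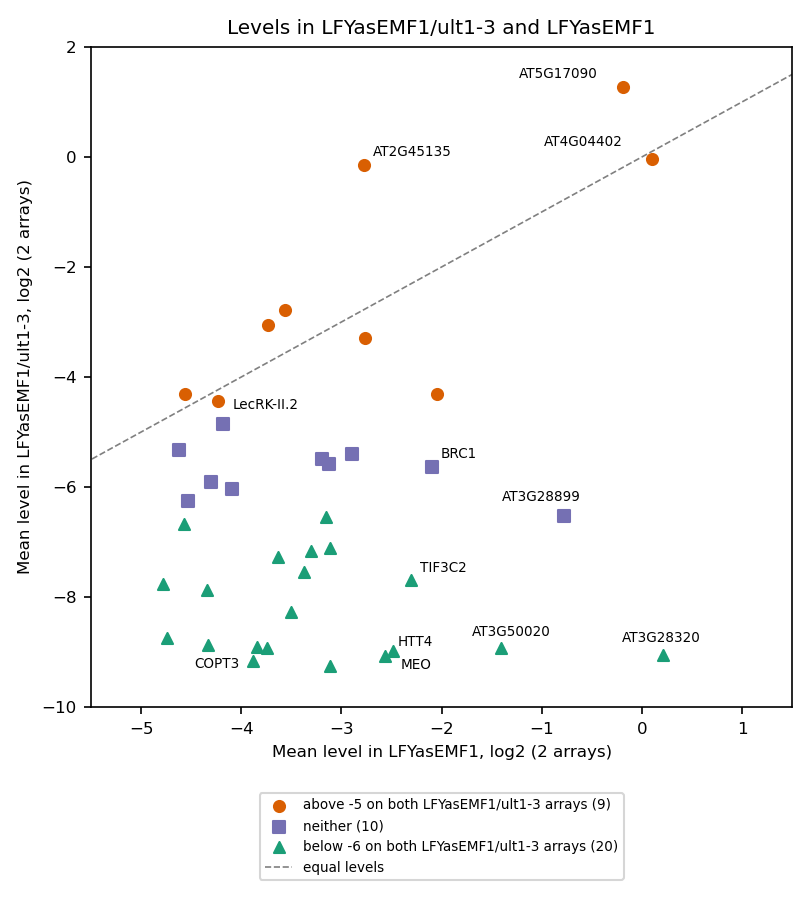
Mean level of 39 of the 40 genes over 2 arrays in LFYasEMF1/ult1-3 (vertical axis, log2) against LFYasEMF1 (horizontal axis, log2), with symbols for the level in LFYasEMF1/ult1-3. AT5G17090, AT4G04402 and AT2G45135 lie near or above the line of equal levels, whereas AT3G28320 and AT3G50020, also high in LFYasEMF1, lie near −9 in LFYasEMF1/ult1-3.

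The larger share of the 40 was lower in the double mutant than in LFYasEMF1. The mean in the double mutant minus that in LFYasEMF1 had a median of −3.19 and ran from −9.27 to 2.63. Both double mutant arrays lay below both LFYasEMF1 arrays in 34 of the 40, beside 21.4% of all genes, but LFYasEMF1 was chosen to be high, so nothing is read from that count. In 27 genes the double mutant was lower by more than 2 log2 units. Of the 20 genes below −6 on both double mutant arrays, 16 were not well above background on either array, and by chromosome they numbered 4, 1, 7, 6 and 2 on chromosomes 1 to 5.

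AT3G28320 had the highest mean in LFYasEMF1 and showed the widest gap. It was at −8.85 and −9.26 in the double mutant, 0.09 and 0.34 in LFYasEMF1, −8.84 and −9.37 in ult1-3 and −10.82 to −8.19 in WT. LFYasEMF1 was at least 147-fold over the double mutant and at least 253-fold over WT. AT3G50020 was at −8.72 and −9.16 in the double mutant, −1.71 and −1.09 in LFYasEMF1, −8.64 and −9.16 in ult1-3 and −10.67 to −9.29 in WT. LFYasEMF1 exceeded the double mutant at least 47.7-fold for AT3G50020. In these 2 genes, as in HTT4 and COPT3, no array outside LFYasEMF1 was well above background.

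AT3G22940 and AT3G58250 had, with HTT4, AT3G28320 and MEO, low means in the double mutant. AT3G22940 was at −9.06 and −9.44 in the double mutant, −3.08 and −3.14 in LFYasEMF1, −8.78 and −9.43 in ult1-3 and −10.84 to −9.58 in WT. AT3G58250 was at −8.94 and −9.39 in the double mutant, −3.37 and −4.40 in LFYasEMF1, −8.83 and −9.42 in ult1-3 and −10.90 to −8.58 in WT. For both, the double mutant and ult1-3 values were below background and are not ordered.

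Besides AT1G04500 and AT4G35210, described below, 9 further locus-named genes were below −6 in the double mutant: AT1G48180, AT1G61415, AT1G62080, AT3G30805, AT3G48640, AT4G19630, AT4G22960, AT4G24420 and AT4G31570. They ranged over −9.19 to −6.17 in the double mutant, −4.83 to −2.49 in LFYasEMF1, −9.46 to −6.55 in ult1-3 and −9.79 to −6.20 in WT. LFYasEMF1 stood clear of the other 3 lines for each of them.

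AT3G28899 was high in LFYasEMF1 and low, but above background, in the other mutants. It was at −5.94 and −7.10 in the double mutant, −0.76 and −0.78 in LFYasEMF1, −5.13 and −6.32 in ult1-3 and −9.25 to −6.06 in WT. LFYasEMF1 was 53.7-fold over the double mutant and 91.6-fold over WT, while the double mutant and ult1-3 overlapped (difference −0.80 ± 0.76, limma adjusted p = 1.00).

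In ult1-3 most of the 40 were as dim as in WT. In 30 genes neither ult1-3 array was well above background, and in 14 both values lay within the WT range. The median over the 40 of ult1-3 minus WT was 0.22, beside −0.02 over all genes. Both ult1-3 arrays lay above all 4 WT arrays in 12 of the 40, beside 5.37% of all genes, but many of those values were below background. The double mutant lay above all 4 WT arrays in 20 of the 40, beside 9.16%, and since WT was chosen to be low nothing is read from these counts. After AT2G45135, AT3G28899 and AT5G17090, the highest ult1-3 means were those of AT1G55440 and LecRK-II.2. AT1G55440 was at −5.19 and −5.98 in the double mutant, −2.34 and −3.92 in LFYasEMF1, −6.10 and −6.76 in ult1-3 and −6.94 to −6.11 in WT. AT4G35210, close to the LFYasEMF1 limit, was at −7.58 and −7.94 in the double mutant, −4.81 and −4.75 in LFYasEMF1, −6.02 and −7.48 in ult1-3 and −7.35 to −6.21 in WT. For AT1G55440 and AT4G35210, ult1-3 and WT overlapped.

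The rule asked for a clear signal in LFYasEMF1 at both ages, so loci with a clear signal at a single age could not enter. Of the loci low in WT, 100 passed the LFYasEMF1 limit at 7 days and 98 at 15 days, but 47 at both. Small age differences in LFYasEMF1 were thus favoured by the choice, and no effect of age is read from them. The level at 15 days minus that at 7 days had a median of 0.16 in LFYasEMF1 and lay within 0.5 of 0 in 24 genes. In LFYasEMF1 it exceeded 1 in 4 genes, BRC1, AT4G35690, COPT3 and AT4G31570, and was below −1 in 4. In the double mutant the median was −0.26 with a range of −1.23 to 3.10. With 1 array per mutant and age, none of these age differences has a replicate check.

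In the double mutant, 6 genes were well above background at 15 days and not at 7 days, among them AT1G04500, BRC1, TIF3C2, scpl41 and AT5G45460, and 0 did so at 7 days alone. Among all genes tested, 3.45% and 1.79% followed these 2 patterns. AT1G04500 was at −9.07 and −6.67 in the double mutant, −4.53 and −4.17 in LFYasEMF1, −8.98 and −8.38 in ult1-3 and −8.04 to −6.09 in WT. AT5G45460 was at −7.44 and −5.09 in the double mutant, −4.68 and −4.40 in LFYasEMF1, −8.38 and −7.23 in ult1-3 and −7.48 to −6.48 in WT. At 15 days AT5G45460, BRC1, TIF3C2 and scpl41 lay above both 15-day WT arrays in the double mutant, and AT1G04500 did not.

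**Figure D4:**
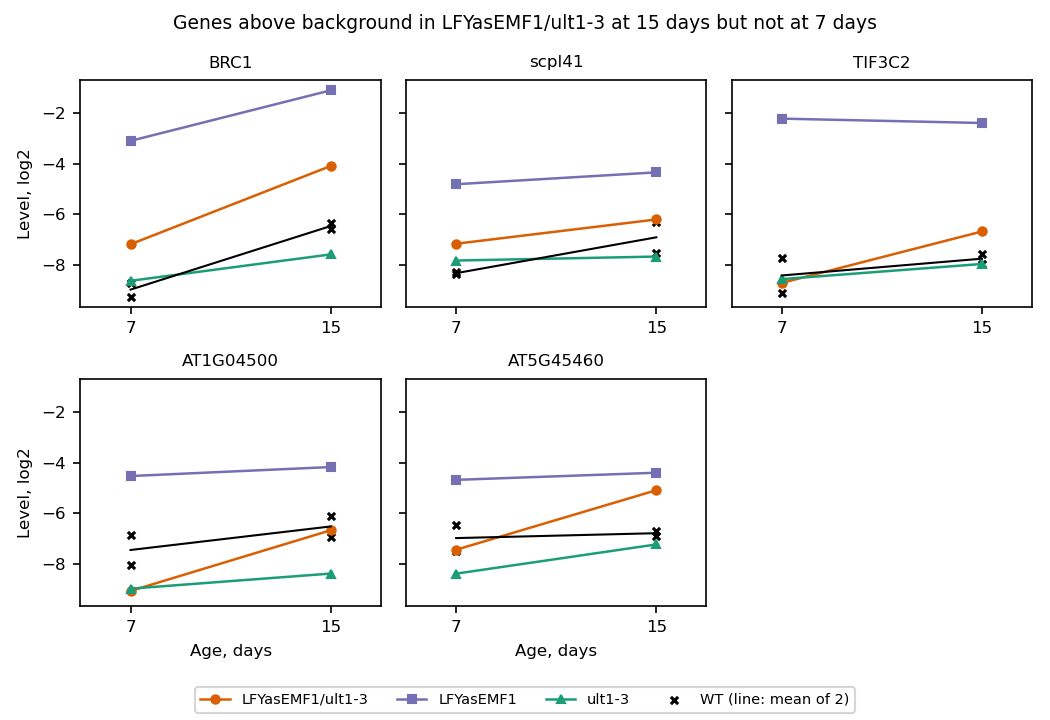
Levels (log2) at 7 and 15 days of age for 5 of the 6 genes well above background in LFYasEMF1/ult1-3 at 15 days but not at 7 days, with 1 array per mutant and age and both WT arrays shown as crosses around their mean. BRC1 is higher at 15 days in LFYasEMF1 and WT, and LFYasEMF1 is above the other lines at both ages in all 5 panels.

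The genes on either side of the 40 were examined in the order of TAIR10.1. Of 160 measured neighbours, 2 on each side, both LFYasEMF1 arrays lay above all 4 WT arrays in 16 (10%), beside 8.45% of all genes, and their median LFYasEMF1 minus WT was −0.00, beside 0.00 over all genes. The share among neighbours was thus near that of all genes, and 0 of the 160 were called between the double mutant and ult1-3 by limma (9 at an unadjusted p under 0.05). No 2 of the 40 were adjacent. The closest were TIF3C2 and AT3G22940, with 11 genes between them.

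A few neighbours, named after their values were seen, did differ. AT3G28310, the measured gene next to AT3G28320, was at −5.53 and −7.56 in the double mutant, −1.52 and −1.49 in LFYasEMF1, −5.93 and −7.40 in ult1-3 and −8.62 to −2.84 in WT. On its other side lay AT14A (AT3G28290), at −0.00 and 0.37 in the double mutant, −7.47 and −5.62 in LFYasEMF1, −0.42 and −2.72 in ult1-3 and −2.63 to 0.55 in WT. Within this stretch LFYasEMF1 was therefore high for 2 genes and low for another that every other line expressed. For AT3G28310, WT was at −4.87 and −2.84 on slide 1, which held LFYasEMF1, and at −6.90 and −8.62 on slides 2 and 3. The gene table lists AT14A at the adjacent AT3G28300 too, so the AT14A signal may not come from 1 locus. Beyond AT3G28320, the ranges of LFYasEMF1 and WT overlapped for GATL10 and ABCB15.

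**Figure D5:**
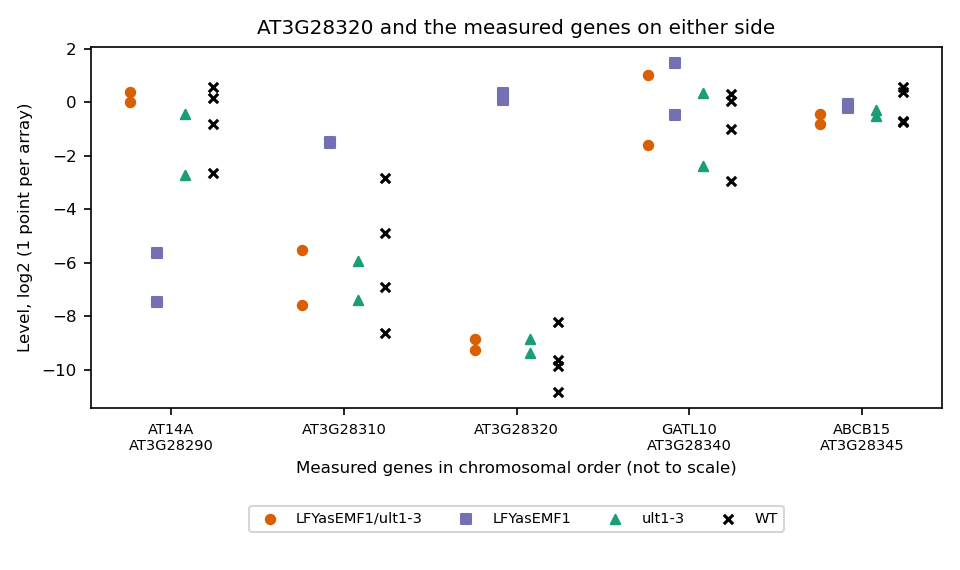
Level on each array (log2, 1 point per array) for AT3G28320 and the 2 measured genes on each side in chromosomal order, which is not to scale. LFYasEMF1 is near 0 at AT3G28320 while all other arrays lie at −8.19 or lower, and at AT14A LFYasEMF1 is at −5.62 or lower while all other arrays lie at −2.72 or higher.

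Near AT3G28899, MIF2 (AT3G28917), a mini zinc finger protein that acts in ending the floral meristem, was at −2.75 and −2.80 in the double mutant, 0.22 and −0.42 in LFYasEMF1, −4.56 and −5.25 in ult1-3 and −5.53 to −4.14 in WT. Next to AT4G22960, the flowering MADS-box gene AGL19 (AT4G22950) was at −8.44 and −4.31 in the double mutant, −5.06 and −2.68 in LFYasEMF1, −7.82 and −4.49 in ult1-3 and −8.97 to −4.66 in WT. LFYasEMF1 exceeded all WT arrays for MIF2. For AGL19 LFYasEMF1 exceeded both WT arrays of the same age at each age, with WT at −8.97 and −5.82 at 7 days. The 7-day LFYasEMF1 value lay below the brightest 15-day WT array, at −4.66.

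The 11 floral organ and meristem identity genes with a value on every array, out of a list of 12, had a summed signal of 1.63 and 4.38 times the 75th percentile of the array in the double mutant, 10.4 and 10.9 in LFYasEMF1, 0.80 and 1.39 in ult1-3 and 1.15 to 1.57 in WT. SEP3 and PI had the highest levels of the list in LFYasEMF1. SEP3, a MADS-box regulator of floral organs, averaged 2.50 in LFYasEMF1 and −1.85 in WT, and PI, which specifies petals and stamens, averaged 1.25 in LFYasEMF1 and −3.86 in WT. AP2 averaged −0.75 in LFYasEMF1 and −0.70 in WT, and JAG −5.25 in LFYasEMF1 and −5.17 in WT. The list's LFY was not well above background on any mutant array. The part of these genes in the levels of the 40 was not tested. Leaf photosynthesis markers summed to 299.3 and 217.3 in the double mutant, 286.0 and 276.7 in LFYasEMF1, 259.8 and 235.0 in ult1-3 and 185.9 to 270.8 in WT. Root markers were well above background in every line, with lower sums at 15 than at 7 days. The 4 with a value on every array, out of 5, summed to 3.87 and 0.56 in the double mutant, 3.55 and 0.81 in LFYasEMF1 and 2.79 and 0.87 in ult1-3. In WT they summed to 3.26 and 2.29 at 7 days and 1.65 and 0.74 at 15 days.

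Between the double mutant and ult1-3, 0 of 11 tested floral identity genes passed the limma test after adjustment. An unadjusted p under 0.05 was reached by 4, all higher in the double mutant. The 11 tested genes are not the 11 summed above: they include AG, which lacks a WT value, and leave out RBE, well above background on no array. The median of their differences was 1.49, with 10 of 11 positive. The 7 genes set aside by name belong to a list of 14 that were to be left out whether or not they met the rule. Of the 12 on that list that were tested, 1 passed, SEP2, with a difference of 5.23 ± 0.52 (limma adjusted p = 0.0067). Of these 12, 8 had an unadjusted p under 0.05, all higher in the double mutant, and the median difference was 2.16. The rule on LFYasEMF1 and WT levels was met by 7 of the 14. None of 16 carpel, ovule and fruit genes, 16 stamen, tapetum and pollen genes, 19 seed maturation genes, 10 shoot meristem genes, 2 scent and nectar genes, 3 leaf markers or 5 root markers passed, and over these 7 lists 2 genes, 1 of the stamen list and 1 of the seed list, had an unadjusted p under 0.05. The lists' medians were −0.03 for carpel, 0.11 for stamen, 1.24 for seed, 0.03 for meristem, −0.21 for scent, 0.05 for leaf and −0.13 for root.

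Each value rests on 1 probe, and 9 of the 40 had a second one. The second probe also met the rule for 5 genes, BRC1, AT4G19630, AT4G22960, AT5G17090 and AT5G60140. For the other 4, among them AT1G04500, AT3G30805 and AT3G48640, it did not, although LFYasEMF1 was above WT on average with all 9. In AT3G30805 the chosen probe gave −3.59 and −3.41 in LFYasEMF1 and the second −7.03 and −6.40.

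The limits decided some memberships narrowly. Just inside the WT limit, the highest WT values were −6.01 for AT4G10843, −6.05 for AT2G45135 and −6.06 for AT3G28899. Just outside it lay IDD16 at −5.99, AT1G48670 at −5.94 and HB21 at −5.87. Just inside the LFYasEMF1 limit, the lower LFYasEMF1 values were −4.997 for AT4G04601, −4.83 for AT1G48180 and −4.81 for AT4G35210. Just outside it lay AT3G43630 at −5.03, AT3G03240 at −5.07 and GATA13 at −5.11.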

How the data were processed

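Per the labels' protocols, total RNA of whole seedlings was amplified and labelled with 1 dye, and the submitters' processing notes name Agilent Feature Extraction 10.7.1.1. The deposited processed signal is a linear intensity from which background was subtracted and spatial trend removed array by array, per the file headers, with no step between arrays. The authors' deposited value table also holds an intensity, on a scale the files do not state, and was used as an alternative, as were median spot and background signals.

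Control and outlier spots were left out, and 0 spots were saturated. Each signal was taken relative to the 75th percentile of non-control spots on its array, as log2. Accessions gave a locus to 34358 probes, for 25433 loci in TAIR10.1, and 9245 probes had none. The brightest probe by mean over all 10 arrays stood for a locus. Loci with a missing spot on a WT or LFYasEMF1 array (133) could not be judged, and 4 of them met the rule on the remaining arrays. A group not well above background on any array gives only a bound ("at least"), set by each array's dimmest signal that was.

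The comparison of LFYasEMF1/ult1-3 with ult1-3 used limma 3.58.1 in R 4.3.3 on all 10 arrays, with genotype and age (5 residual degrees of freedom), and Benjamini-Hochberg adjustment over 22477 genes well above background on at least 1 array. The script was tested on simulated data. Members and lists were chosen with earlier results of these data known. Named genes are those called, those with extreme means in a line and those nearest the limits; members with an annotated name and genes pointed out in the text were added after values were seen. Alternatives changed normalization, background, filter, floor, probes, samples, slide, variance and limits, and left out each array. Sequences were not used here, and 1 of the 40 genes is counted but its values are not reported here.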

Additional observations from a re-analysis of the deposited data

Results flagged for a closer look

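Among the 9245 probes that were given no locus and enter no count above, 29 lay below −6 on all 4 WT arrays and above −5 on both LFYasEMF1 arrays. They are given because they carry the same pattern in data outside the main measurement. In LFYasEMF1/ult1-3, 6 of the 29 were above −5 on both arrays and 17 below −6 on both, and in ult1-3, 1 was above −5 on both.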

How the results depend on the processing

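The main comparison rests on 2 arrays per line at different ages, and dim signals limit what it can show. Over 819 refits of single members, 758 stayed on the same side of the threshold, 55 lost the call, 6 gained it and 0 calls reversed. Most of these refits were of the 31 members not called, so the 758 do not measure how stable the calls were. All 55 losses fell on the 9 called members. These kept their call in 2 of 21 alternatives (LecRK-II.2) to 20 of 21 (AT5G17090). Differences that were not called did not always keep their sign, as for AT1G48180, where the log2 difference ran from −1.33 to 0.77. In the fit of the 4 LFYasEMF1/ult1-3 and ult1-3 arrays alone, which leaves 1 residual degree of freedom, limma called 0 genes and 0 members, with 1685 genes and 17 members (16 higher) at an unadjusted p under 0.05. Members called numbered 3, of the 19 tested, when a gene had to be well above background on 5 arrays, and 5 with a floor under dim signals. Otherwise the changes of processing gave 6 to 9 members, and the changes of processing other than the 4-array fit gave 58 to 103 genes. The median over members, 0.82, was 0.34 with the floor, 0.35 with normexp and 1.17 over the 19 members left by the 5-array filter. AT5G60140 passed under quantile normalization (adjusted p = 0.0257) and with the authors' value table (0.0254), over a range of 0.0254 to 0.637 in its alternatives. BRC1 passed under the same 2 settings (0.0262 and 0.0288), over a range of 0.0262 to 0.9999. Leaving out each array in turn gave 22 to 73 genes, 4 to 8 members and medians over members of 0.70 to 0.84. The 4 came without ult1-3 at 15 days and without LFYasEMF1/ult1-3 at 15 days. Without ult1-3 at 15 days 22 genes were called, without ult1-3 at 7 days 37, without LFYasEMF1/ult1-3 at 7 days 46 and at 15 days 53, against 84 with all arrays. The number of members was 23 with limits of −6 and −4, and 43 to 93 when an array was left out, 91 without LFYasEMF1 at 7 days and 93 without it at 15 days, since a rule with fewer arrays is easier to meet. Members above −5 in LFYasEMF1/ult1-3 then numbered 10 to 12, and in ult1-3 0 with limits of −6.5 and −5, since AT2G45135 is no member there. Apart from these, the causes were not tested. No paired analysis was possible because the mutant arrays carry no replicate numbers by which to pair them. Pairing by age and slide was run: it is the fit of 4 arrays above, and slide as a term in the fit of all arrays gave 8 members and 97 genes.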
